A study of Rattus norvegicus with 18 samples.

Results

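Nuclear genes of the mitochondrial respiratory chain were followed in the proximal stump of the rat sciatic nerve during the first hours after resection. They were taken by name: every probe on the array, control spots aside, whose gene name begins with Nduf, Uqcr, Cox4 to Cox8 or Atp5, or is Sdha, Sdhb, Sdhc or Sdhd. This gave 81 gene names on 101 probes, of 35287 gene names on 41012 probes, and each gene was read from its brightest probe. Male Sprague-Dawley rats of 180 to 220 g were anaesthetized, 1 cm of the left sciatic nerve was cut out at mid-thigh, and 0.5 cm of the nerve was collected at 0, 0.5, 1, 3, 6 or 9 h. The labels give the same operation for all groups, 0 h included, and name no sample as sham-operated or intact nerve. Total RNA went onto 1-colour arrays, 3 per time-point and 18 in all. The labels do not say whether an array carries the RNA of 1 rat or of several, so the P-values measure the spread between arrays, part of which may be technical.

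The respiratory chain passes electrons from NADH and succinate to oxygen and uses the energy to pump protons, whose return through ATP synthase makes ATP. Complex I (Nduf genes) takes electrons from NADH, complex II (Sdh) from succinate, complex III (Uqcr) hands them to cytochrome c, complex IV (Cox) passes them to oxygen, and complex V (Atp5) is the ATP synthase. A core of subunits is made inside the organelle from mitochondrial DNA and all others come from nuclear genes. In peripheral nerve, mitochondria lie in Schwann cells, fibroblasts and vessels as well as in the axons, but the nuclear transcripts that serve axonal mitochondria are made largely in distant cell bodies. In tissue RNA of this kind, fewer cells of a type and less RNA per cell cannot be told apart.

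The promoters of 4 members described further on are shown, to set subunits found in most tissues beside muscle forms. Atp5i encodes the e subunit of ATP synthase. Cox8a is the common and Cox8b the heart and skeletal muscle form of complex IV subunit 8, and Cox6a2 is the muscle form of subunit 6a. Each sequence is the 300 bases around the start of the gene, most of them upstream, in the RefSeq annotation of GRCr8, read along the strand of the gene. Capitals mark CGCATGCG (the palindromic core of sites for nuclear respiratory factor 1, NRF1), CCGGAAG (ETS factors), AAGATGGC (YY1), CAGCTG (an E-box bound by the muscle factors of the MyoD family) and TATAAA, on either strand. The windows lie at chr14:1464610-1464909 on the plus strand for Atp5i, and on the minus strand at chr1:213833574-213833873 for Cox8a, chr1:205408224-205408523 for Cox8b and chr1:192219667-192219966 for Cox6a2.
Atp5i: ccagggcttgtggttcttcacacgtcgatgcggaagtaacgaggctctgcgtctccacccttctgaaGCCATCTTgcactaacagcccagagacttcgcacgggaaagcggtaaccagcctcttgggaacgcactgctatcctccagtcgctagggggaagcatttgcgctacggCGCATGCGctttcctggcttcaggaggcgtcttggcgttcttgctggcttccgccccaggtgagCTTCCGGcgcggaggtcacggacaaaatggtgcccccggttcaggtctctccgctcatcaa
Cox8a: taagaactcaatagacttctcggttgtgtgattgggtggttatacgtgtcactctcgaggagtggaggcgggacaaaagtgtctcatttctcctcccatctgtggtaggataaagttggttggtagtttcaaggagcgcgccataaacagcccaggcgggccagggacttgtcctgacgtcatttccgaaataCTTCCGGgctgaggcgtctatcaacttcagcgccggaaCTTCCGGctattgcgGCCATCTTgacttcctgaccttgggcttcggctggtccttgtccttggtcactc
Cox8b: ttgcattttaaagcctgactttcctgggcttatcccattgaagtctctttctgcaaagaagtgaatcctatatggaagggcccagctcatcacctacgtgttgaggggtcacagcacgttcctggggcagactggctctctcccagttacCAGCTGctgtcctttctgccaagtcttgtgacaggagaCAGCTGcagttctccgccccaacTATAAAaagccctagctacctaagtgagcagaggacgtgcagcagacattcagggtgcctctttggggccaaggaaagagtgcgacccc
Cox6a2: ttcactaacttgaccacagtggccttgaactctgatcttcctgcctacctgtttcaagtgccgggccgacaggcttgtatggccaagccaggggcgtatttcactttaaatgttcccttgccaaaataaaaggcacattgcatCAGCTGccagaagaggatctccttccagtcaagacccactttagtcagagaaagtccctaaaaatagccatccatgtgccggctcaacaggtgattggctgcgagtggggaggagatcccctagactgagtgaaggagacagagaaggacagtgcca

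Atp5i held 1 copy each of the NRF1, ETS and YY1 letters, and Cox8a held 2 ETS copies and 1 YY1 copy. Neither muscle form held any of these 3, whereas Cox8b held 2 E-boxes and a TATAAA and Cox6a2 held 1 E-box. All 81 members were matched to the RefSeq table, 74 by accession and 7 by symbol, and 69 had a promoter there. The NRF1 core stood in 10.1% of these 69 against 1.81% of all 27457 promoters, namely those of Ndufa11, Uqcrc1, Atp5g2, Atp5i, Atp5j, Atp5l and Atp5o. The ETS letters stood in 30.4% against 9.22%, and the YY1 letters in 20.3% against 3.44%. By contrast CAGCTG was found in 17.4% against 15.1%, TATAAA in 7.25% against 14.3%, CCAAT in 33.3% against 37.7%, and the hypoxia response core ACGTG in 30.4% against 19.7%. No one of these letter strings contains another, both strands were searched, and a match is a description of letters only. The median log2 change at 9 h, described next, was −0.43 for the 7 members with the NRF1 core and −0.37 for the others, −0.37 with and −0.40 without the ETS letters, and −0.36 with and −0.38 without the YY1 letters. For CCAAT the medians were −0.46 with and −0.33 without. Members called lower at 9 h were 6 of 7 with and 28 of 61 without the NRF1 core. The same counts were 13 of 21 and 21 of 47 for ETS, and 10 of 14 and 24 of 54 for YY1. They were 14 of 22 and 20 of 46 for CCAAT, and 7 of 21 and 27 of 47 for ACGTG. For CAGCTG they were 6 of 11 and 28 of 57, and for TATAAA 2 of 5 and 32 of 63. Of all genes tested, 15.4% were called lower at 9 h. For ACGTG the medians were −0.34 and −0.40, for CAGCTG −0.41 and −0.37, and for TATAAA −0.37 and −0.38, and no test was made of these differences.

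Levels are given as the log2 signal of a probe minus the 75th percentile of its array, so that 0 is that percentile. Differences between time-points are log2 changes on this scale, and levels of different probes cannot be ranked against each other. A gene was tested if its probe stood well above background, by the scanner's own test, on each of the 3 arrays of some time-point. This held for 80 of the 81 members, 76 of them well above background on all 18 arrays. Cox8c, the testis form of subunit 8, was not well above background on any array. The members' probes were bright, with a median brightness percentile of 96.4 among all probes. A gene was called changed if limma gave a P-value below 0.01 and, after Benjamini-Hochberg adjustment, below 0.05, over all 32113 probes tested.

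The first 0 h array stood apart in these genes and in skeletal muscle markers, so counts of members called at 6 h and 9 h are also given without it, and those of other lists where it moved a count or a median by more than 1.5 times. The median level of the 80 members was 4.47, 4.13 and 4.12 (0 h), 3.94, 4.03 and 4.07 (0.5 h), 4.02, 4.07 and 3.78 (1 h), 3.96, 4.07 and 4.03 (3 h), 4.0, 3.94 and 3.88 (6 h), and 3.92, 3.96 and 3.9 (9 h). All 3 arrays of 0 h lay above all later ones, but the first by far the most. On that array 70 of the 80 members exceeded the mean of the other 0 h arrays, by a median of 0.30. The 15 skeletal muscle markers had median levels of 7.28, 3.02 and 3.49 at 0 h, between −3.49 and 3.48 at 9 h, and between −3.24 and 5.11 over the other times. The logarithm of their summed signal ran from 7.32 to 11.2 at 0 h, 6.49 to 7.6 at 0.5 h, 2.77 to 7.06 at 1 h, 2.45 to 8.81 at 3 h, 2.18 to 9.32 at 6 h and 2.16 to 7.63 at 9 h, and 13 to 15 of the 15 were above background on every array.

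The nerve itself was well represented: all 13 Schwann cell markers were above background on every array, with a median change of −0.28 at 6 h and −0.27 at 9 h and 2 and 4 of them called lower, or 3 and 6 without the first 0 h array (medians −0.36 and −0.32) and 1 and 2 after quantile normalization (medians −0.14 and −0.02). All 8 neutrophil markers tested were called higher at 3, 6 and 9 h, with median changes of 3.44, 4.48 and 4.92. Only 6 of the 8 were well above background on each 0 h array, and 5 on all 18 arrays. Some were thus tested only through later time-points, and the sizes of these changes are uncertain. The neutrophil markers' summed signal was 0.79 to 1.37 on the 0 h arrays and 4.83 to 5.13 on the 9 h arrays, on the log2 scale. Of 7 fibroblast markers, 5 were lower at 9 h, with a median of −0.50, and 1 after quantile normalization, with a median of −0.15. Of 9 endothelial markers 3 were lower and 1 higher, and their summed log2 signal was 5.85 to 5.96 at 0 h against 5.42 to 5.48 at 9 h, without overlap. Of 6 markers of pericytes and smooth muscle 2 were lower, with 5.39 to 5.82 against 5.01 to 5.29. Of 10 macrophage markers 3 were higher at 9 h. At 0.5 h all 8 adipocyte markers tested had positive changes, with a median of 0.79 and a summed signal of 6.91 to 7.37 against 6.11 to 6.83 at 0 h, and so had the 3 erythroid markers, with a median of 1.65, but limma called 0 of these markers, with 5 and 2 at an unadjusted P-value under 0.05. The part of these markers' cell types in the changes described here was not tested. All 0 h and 0.5 h arrays were scanned on 1 day and all others on later days, so that only 0.5 h against 0 h, and 3 h and 6 h against 1 h, lie within a scan day. For the other comparisons with 0 h, time and scan day cannot be told apart. No slide held arrays of more than 1 time-point, so time and slide cannot be told apart in any comparison, within a scan day or not. With slide as a random block 11 members were lower at 0.5 h, and the counts at 6 h (34), 9 h (38) and 6 h against 1 h (10) were those given next.

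**Figure D1:**
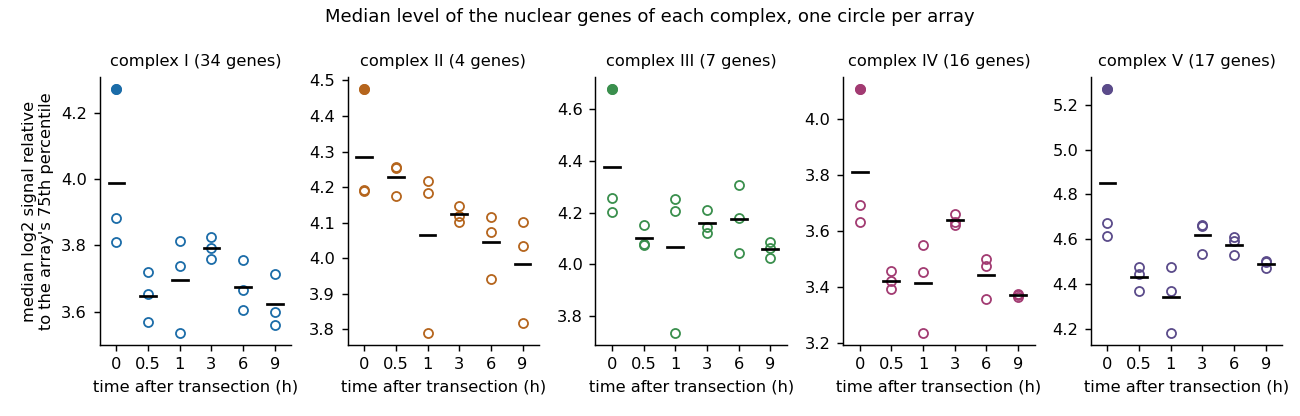
Median level of the tested members of each complex on every array, as log2 signal relative to the array's 75th percentile, against time after resection in hours. Each circle is an array, the filled one the first 0 h array, and the bar is the mean of 3 arrays; the vertical axes differ between panels and do not start at 0. In complex I the 0 h arrays lie at 4.27, 3.88 and 3.81 and the 9 h arrays at 3.56, 3.6 and 3.71.

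Against 0 h, the share of respiratory chain genes called lower at 6 h and 9 h was above that of all genes, and each of the 5 complexes had members among them. At 6 h 34 of the 80 were called lower and 3 higher, and at 9 h 38 were lower and 3 higher. Of all 27203 gene names tested, 13% were lower and 12% higher at 6 h, and 15.4% lower and 15.8% higher at 9 h, so that the members' shares of lower calls, 42.5% and 47.5%, stood above the background and their shares of higher calls below it. Among the 5750 genes whose probes lay in the top brightness quintile of those tested, here called bright genes, 24.6% were lower at 6 h and 28.5% at 9 h. By complex, the shares of lower calls at 6 h were 61.8% (I), 25% (II), 42.9% (III), 18.8% (IV) and 35.3% (V). At 9 h they were 55.9%, 50%, 42.9%, 37.5% and 47.1% in the same order. Those of complexes II and III rest on 4 and 7 genes. The members called lower had changes of −0.75 to −0.31 at 6 h and of −0.97 to −0.31 at 9 h.

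The median change of the 80 members was −0.33 at 6 h and −0.35 at 9 h, or 20.5% and 21.4% lower in signal, against 0.01 for all genes at both times and −0.15 for the bright genes at both times. Without the first 0 h array 23 members were lower at 6 h and 26 at 9 h, a share of 28.8% and 32.5% against a background of 12.9% and 15.4%, and the medians were −0.22 and −0.23. Of the 37 members called in either direction at 6 h, 25 were called without that array, and of the 41 called at 9 h, 29 were. Uqcrc1, a core protein of complex III, was then called higher at 9 h, by 0.50. With the level of the skeletal muscle markers on each array as a linear covariate, an alternative chosen after the data were seen, 25 and 26 members were lower, with medians of −0.23 at both times. On this unlogged scale the first 0 h array lay farthest from the others. The lower calls at 9 h were as many in each complex as without that array. With the log2 level instead, 32 and 36 members were called in either direction, against 28 and 30 with the linear level. No background share is given for these settings.

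Earlier time-points showed fewer calls. At 0.5 h 10 members were lower and 2 higher, at 1 h 3 were lower and 1 higher, and at 3 h 5 were lower. The background of lower calls was 1.72% at 0.5 h, 2.04% at 1 h and 6.84% at 3 h, and that of higher calls 4.27%, 3.59% and 7.15%, so that the share of lower calls stood above it at 0.5 h (12.5%) and near it at 1 h (3.75%) and 3 h (6.25%). At 3 h limma called 0 members higher, and 1 (Cox6c1) was higher at an unadjusted P-value under 0.05. The median change was nonetheless −0.27, −0.26 and −0.22 at 0.5, 1 and 3 h, and −0.15, −0.14 and −0.08 without the first 0 h array, when 4, 0 and 1 members were lower, or 5%, 0% and 1.25% against a background of 1.42%, 1.54% and 6.19%. Over all 6 time-points 29 of the 80 changed in the F-test, 36.2%, against 34.6% of all genes and 45.2% of the bright genes.

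The fall at 0.5 h lay within 1 scan day. The 10 genes, named here because they were called and not by the rule for named genes, were 5 of complex I (Ndufa2, Ndufa11, Ndufb7, Ndufs7 and Ndufs8), Uqcr of complex III, and 4 of ATP synthase (Atp5d, Atp5g1, Atp5g2 and Atp5j). Their changes ran from −0.64 in Atp5g1, a copy of the proton-carrying c subunit, to −0.40 in Uqcr. Without the first 0 h array 4 of the 10 were called lower, namely Ndufa11, Ndufs7, Uqcr and Atp5g1, with Atp5g1 at −0.40. The count was also 4 without the second 0 h array, 5 without the second 0.5 h array and 1 without either the first or the third 0.5 h array, and after quantile normalization it was 3, or 3.75% against a background of 2.12%. Atp5g1 stood at 5.27, 4.57 and 4.52 at 0 h and at 4.10, 4.20 and 4.14 at 0.5 h. All 3 arrays of 0.5 h lay below all 3 of 0 h, and the first 0 h array lay well above its companions.

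**Figure D2:**
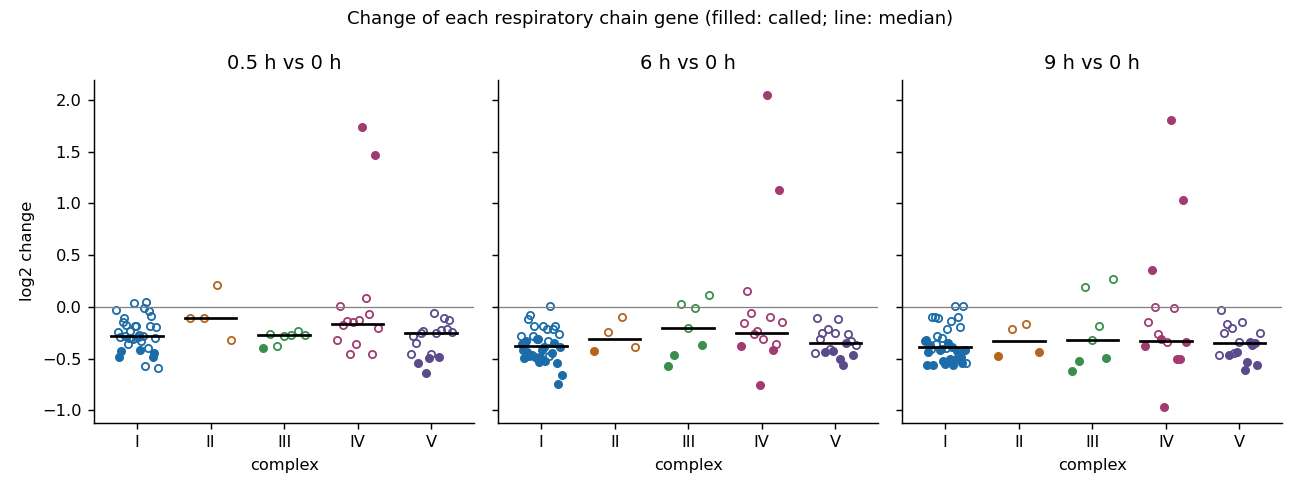
Log2 change of each tested member against 0 h at 0.5, 6 and 9 h, by complex; each point is a gene, filled where it was called, and the line is the median of the complex. Cox6a2 and Cox8b, whose changes reach −4.33, lie outside the plotted range and are left out; most points at 6 h and 9 h lie below 0, and the medians of complex I are −0.37 and −0.39.

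Within the second scan day the share of lower calls was close to that of all genes, but it depended on single arrays. At 6 h against 1 h, 10 members were lower and 4 higher against a background of 12.6% lower and 11.4% higher, so that their shares of 12.5% and 5% were near and below those of all genes. The 10 became 17 without the third 1 h array, 6 without the first and 5 without the second, 5 without the second or the third 6 h array, and 20 with array weights. The median change was −0.09, equal to that of the bright genes, of which 20.7% were lower. The 10 had changes of −0.50 to −0.27, and 9 of them were also lower at 9 h against 0 h: Ndufa6, Ndufb4, Ndufb8 and Ndufs8 of complex I, Sdha, Uqcr, Cox6a1 and Cox6b2 of complexes II to IV, and Atp5s. At 3 h against 1 h 1 member was higher (Cox4nb), against a background of 5.58%, and limma called 0 lower, also at an unadjusted P-value under 0.05, against a background of 4.57%. The median change was 0.05.

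In complex I, 21 of 34 members were lower at 6 h and 19 at 9 h, with median changes of −0.37 and −0.39, or 11 and 10 without the first 0 h array, with a median of −0.28 at 9 h. Limma called 0 of them higher at either time, also at an unadjusted P-value under 0.05. Ndufs8 carries iron-sulphur clusters on the path of electrons to ubiquinone. Its level was 1.89, 1.52 and 1.68 (0 h), 1.16, 1.29 and 1.30 (0.5 h), 1.6, 1.5 and 1.24 (1 h), 1.32, 1.16 and 1.31 (3 h), 0.96, 0.85 and 1.04 (6 h) and 1.03, 1.15 and 1.29 (9 h). Every array of 0.5 h and of 3 h onward lay below every 0 h array, while 1 h overlapped with 0 h. Its change was −0.75 (SE 0.12, limma adjusted P-value 0.000459) at 6 h and −0.54 (adjusted P-value 0.00314) at 9 h, and −0.50 (adjusted P-value 0.00656) at 6 h against 1 h. A second Ndufs8 probe on the same strand fell by 0.65 and 0.45 and was called lower at 9 h.

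Ndufb4, an accessory subunit in the membrane arm, stood at 5.85, 5.82 and 5.71 (0 h), 5.82, 5.76 and 5.58 (1 h), 5.38, 5.34 and 5.20 (6 h) and 5.17, 5.36 and 5.19 (9 h). The 1 h arrays overlapped with those of 0 h and the 6 h and 9 h arrays lay below both. Its change was −0.55 (SE 0.09, limma adjusted P-value 0.000396) at 9 h and −0.41 (adjusted P-value 0.00407) at 6 h against 1 h. Ndufa6, another accessory subunit, stood at 5.50, 5.39 and 5.40 at 0 h and at 4.79, 4.95 and 4.86 at 9 h, without overlap, a change of −0.56 (SE 0.09, adjusted P-value 0.000281). Both genes' probes lie in rn4, the build of the probe coordinates, at chr11:64859470-64859529 for Ndufb4 and chr7:120726147-120726206 for Ndufa6.

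Ndufa11, one of the genes with an NRF1 core in its promoter, was lower at 0.5 h already. It stood at 2.18, 2.16 and 2.13 (0 h), 1.58, 1.76 and 1.67 (0.5 h), 2.0, 2.0 and 1.91 (3 h) and 1.57, 1.7 and 1.5 (9 h). Its changes were −0.48 (limma adjusted P-value 0.00636) at 0.5 h and −0.56 (adjusted P-value 0.000262) at 9 h, with the 3 h arrays in between. The direction of its probe in the files is opposite to the strand of the gene in the RefSeq table, as for 13 of the probes that were tested for members, so that reads of this probe as Ndufa11 are uncertain. Over 13064 probes with RefSeq messenger accessions, 95.5% ran along the strand of their gene. Ndufb8, also of the membrane arm, changed by −0.50 (adjusted P-value 0.00266) at 9 h, and Ndufa4, placed here by its name but now counted with complex IV, by −0.40 (adjusted P-value 0.0394, not called).

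Complex II, which is also the succinate dehydrogenase of the citrate cycle, had 4 members, of which 1 was lower at 6 h and 2 at 9 h. Without the first 0 h array Sdha alone was lower at either time, and Sdhd was then not called at 9 h (−0.27, limma adjusted P-value 0.0848). Sdha, its flavoprotein, stood at 5.25, 4.96 and 4.98 (0 h), 4.97, 4.96 and 4.87 (1 h), 4.75, 4.60 and 4.57 (6 h) and 4.58, 4.60 and 4.57 (9 h). The 6 h and 9 h arrays lay below all earlier ones of 0 h and 1 h. The change was −0.48 (SE 0.08, limma adjusted P-value 0.000799) at 9 h and −0.29 (adjusted P-value 0.0196) at 6 h against 1 h. Sdhd, a membrane anchor, changed by −0.44 (adjusted P-value 0.0206) at 9 h, with 4.38, 3.95 and 3.82 at 0 h against 3.62, 3.63 and 3.57. The iron-sulphur subunit Sdhb (−0.22, adjusted P-value 0.196) and the anchor Sdhc (−0.16, adjusted P-value 0.394) were not called.

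In complex III, 3 of 7 members were lower at 6 h and at 9 h, namely the small accessory subunits Uqcr, Uqcrb and Uqcrh, and without the first 0 h array 2 at 6 h and 3 at 9 h, since Uqcrh was then not called at 6 h (−0.27, limma adjusted P-value 0.0788). Uqcr, now named Uqcr11, stood at 5.12, 5.17 and 4.99 (0 h), 4.62, 4.76 and 4.71 (0.5 h), 4.94, 4.96 and 4.75 (1 h), 4.83, 4.79 and 4.83 (3 h), 4.53, 4.54 and 4.49 (6 h) and 4.40, 4.56 and 4.45 (9 h). All later arrays lay below all 0 h arrays, with 1 h nearest to them. The change was −0.62 (SE 0.08, limma adjusted P-value 0.000102) at 9 h and −0.36 (adjusted P-value 0.00563) at 6 h against 1 h. Uqcrb changed by −0.52 (adjusted P-value 0.00241) and Uqcrh, whose probe runs against the strand of the gene, by −0.49 (adjusted P-value 0.00266). Uqcrc1, Uqcrc2 and Uqcrfs1, the core proteins and the Rieske iron-sulphur protein, were not called, with changes of 0.20, −0.32 and −0.18 at 9 h.

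In complex V, 6 of 17 members were lower at 6 h and 8 at 9 h, with medians of −0.35 at both times, and 6 and 7 were lower without the first 0 h array, with medians of −0.21. Atp5i stood at 6.83, 6.60 and 6.48 (0 h), 6.31, 6.53 and 6.32 (0.5 h), 6.20, 6.09 and 6.12 (6 h) and 6.00, 6.11 and 5.98 (9 h). Its 6 h and 9 h arrays lay below those of 0 h and 0.5 h, which overlapped. The change was −0.61 (SE 0.11, limma adjusted P-value 0.00123) at 9 h. Atp5j, the coupling factor 6 of the stalk, changed by −0.53 (adjusted P-value 0.00249), the c subunit gene Atp5g2 by −0.43 (adjusted P-value 0.00727), and Atp5e, the epsilon subunit, by −0.46 (adjusted P-value 0.00212) on a probe that runs against its gene.

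Atp5s, named Dmac2l in RefSeq, was placed in complex V only by its name on the array, as was Atp5sl, now Dmac2. Atp5s stood at 0.20, 0.20 and 0.35 (0 h), −0.16, −0.14 and −0.33 (6 h) and −0.34, −0.24 and −0.34 (9 h), without overlap. The change was −0.56 (limma adjusted P-value 0.00104) at 9 h and −0.32 (adjusted P-value 0.0336) at 6 h against 1 h. The alpha subunit Atp5a1 and the catalytic beta subunit Atp5b were not called, with changes of −0.47 and −0.03 at 9 h. Atp5a1 was 0.93 higher on the first 0 h array than on the others of 0 h.

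In complex IV, 3 of 16 members were lower and 2 higher at 6 h, and 6 lower and 3 higher at 9 h. The shares were 18.8% and 12.5% at 6 h against 13% and 12% of all genes, and 37.5% and 18.8% at 9 h against 15.4% and 15.8%. Without the first 0 h array 3 and 5 were lower. Cox6b2, the testis form of subunit 6b, had the largest fall of any member called: −1.76, −1.54 and −1.65 (0 h), −2.28, −2.32 and −2.21 (3 h), −2.41, −2.46 and −2.33 (6 h) and −2.71, −2.39 and −2.75 (9 h). The arrays of 3, 6 and 9 h lay below all of 0 h. Its change was −0.97 (SE 0.12, limma adjusted P-value 4.92e-05) at 9 h and −0.37 (adjusted P-value 0.0314) at 6 h against 1 h. Cox7a2l, linked to the assembly of supercomplexes and read from a probe that runs against its gene, changed by −0.51 (adjusted P-value 0.00218) at 9 h. Cox7b changed by −0.50 (adjusted P-value 0.00734), Cox4i1 by −0.37 (adjusted P-value 0.0261), Cox8a by −0.34 (adjusted P-value 0.0306) and Cox6a1 by −0.31 (adjusted P-value 0.0133), whereas Cox7a2 changed by −0.01.

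Some complex IV subunits exist in tissue forms, and the difference between forms on the same array was compared between the 6 arrays of 6 h and 9 h and the 9 arrays of 0, 0.5 and 1 h. Cox4i2, the form of lung and of low oxygen, minus Cox4i1 differed by −0.04 between late and early arrays (exact two-sided permutation test, P = 0.751, adjusted over 3 pairs 0.983). Cox6a2 minus Cox6a1 differed by −0.02 (exact permutation test, P = 0.983), and Cox8b minus Cox8a by −1.56 (exact permutation test, P = 0.392, adjusted 0.983). Leaving out each array in turn moved these differences between −0.11 and 0.03, −0.35 and 0.42, and −2.46 and −0.50. The pairs with Cox6b1, Cox7a1 or Ndufa4l2 were not measured, since the array carries no probe under those names.

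The muscle forms differed widely between arrays of the same time-point. Cox8b stood at 4.66, −0.02 and 0.38 (0 h), 0.53, −1.26 and −0.38 (0.5 h), −4.72, −3.95 and −0.52 (1 h), −2.79, 1.32 and −6.26 (3 h), 2.30, −7.41 and −0.63 (6 h) and −0.10, −7.28 and −0.58 (9 h). The first 0 h array was the highest and the second arrays of 6 h and 9 h the lowest, and the ranges of all time-points overlapped with that of 0 h except 1 h and 9 h. Cox6a2 was likewise highest on the first 0 h array, at 3.24 against −0.58 and −0.42 on its companions, and next on the first 6 h array, at 1.26. The second arrays of 6 h and 9 h were not well above background for Cox8b, so the values there, and the differences that rest on them, are uncertain in size. Neither was called at any time, with changes of −4.33 (SE 2.55) and −1.39 (SE 0.91) at 9 h.

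Over the 18 arrays the level of Cox8b was correlated with the median level of the 15 muscle markers (r = 0.99, rho = 0.98, permutation P = 1e-05, the smallest that the permutations can give, adjusted over 4 relations 4e-05). The correlation was 0.989 without the pair of arrays farthest from the median, 0.998 over the 6 arrays of the first scan day and 0.986 over the 11 of the second. For Cox6a2 it was 0.77 (rho = 0.866, permutation P = 3e-05, adjusted 6e-05), and 0.728, 0.952 and 0.822 in the same subsets. For the common forms no relation passed the test, with r = −0.19 for Cox8a (rho = −0.14, permutation P = 0.445 and 0.594) and r = −0.25 for Cox6a1 (rho = −0.19, permutation P = 0.319 and 0.443). In the same subsets r was −0.21, −0.20 and −0.31 for Cox8a and −0.46, −0.25 and −0.40 for Cox6a1, without a test. Both lay among the lowest of the 80 members, of which 68 had an r above 0, with a median of 0.23, as in Atp5a1 (0.51), Cox5a (0.45) and Cox4i1 (0.31). On the first 0 h array, highest in muscle markers and higher than its companions in 70 of the 80 members, Cox8a and Cox6a1 had the lowest values relative to the other 0 h arrays of all members. They were lower than on the other 0 h arrays, at 5.67 against 6.00 and 5.92, and at 6.93 against 7.19 and 7.14.

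**Figure D3:**
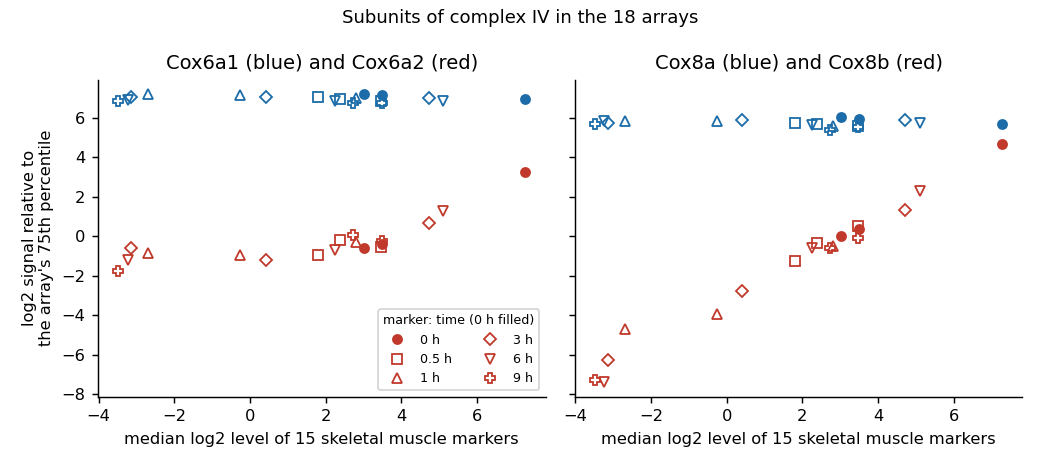
Level of the common (blue) and muscle (red) forms of subunits 6a and 8 of complex IV on each of the 18 arrays, as log2 signal relative to the 75th percentile, against the median level of 15 skeletal muscle markers on the same log2 scale. Marker shapes give the time-point, with 0 h filled; the red Cox8b points rise with the muscle markers (r = 0.99) and the blue Cox8a points do not (r = −0.19).

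A few members were higher. Cox7c, a small complex IV subunit, stood at 0.04, −0.54 and −0.10 (0 h), 1.27, 1.25 and 1.29 (0.5 h), 0.80, 0.70 and 0.09 (1 h), 0.62, 0.65 and 0.03 (3 h), 0.85, 0.86 and 1.08 (6 h) and 1.18, 1.45 and −0.10 (9 h). The arrays of 0.5 h and 6 h lay above all of 0 h, while 9 h overlapped. Its change was 1.47 (SE 0.32, limma adjusted P-value 0.0198) at 0.5 h and 1.04 (adjusted P-value 0.0236) at 9 h. Its probe holds 23.3% G and C, with only 0.866% of probes lower, and the other Cox7c probe, on the opposite strand, changed by 0.11 at 9 h.

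Ndufc2 also had 2 probes that moved apart, but here both lay on the strand of the gene and the dimmer one rose. Its brightest probe was called lower at 9 h, by −0.38, but a second probe on the same strand stood at −2.70, −2.99 and −2.58 (0 h), −0.92, −0.83 and −0.80 (0.5 h), −0.98, −1.04 and −1.06 (6 h) and −0.89, −0.50 and −2.54 (9 h). That probe, of 30% G and C, rose by 1.91 at 0.5 h and 1.45 (limma adjusted P-value 0.0182) at 9 h. As with Cox7c, its arrays of 0.5 h and 6 h were high and the third 9 h array was low. Whether probe composition has a part in either pattern was not tested.

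Some members belong by name only, among them Cox6c1 and Cox4nb. Cox6c1, listed in RefSeq as a pseudogene of Cox6c, stood at −5.85, −6.37 and −5.89 (0 h), −3.44, −4.20 and −4.33 (6 h) and −4.25, −4.03 and −4.42 (9 h), all later ones above 0 h, a change of 1.80 (SE 0.25, limma adjusted P-value 0.000139) at 9 h. On the second 0 h array it was not well above background, and without that array the change was 1.64 (adjusted P-value 0.00104). Its signal could include that of Cox6c itself, which was not called (−0.34). Cox4nb, the neighbour of Cox4i1 and now named Emc8 for its place in a membrane protein complex of the endoplasmic reticulum, rose by 0.36 (adjusted P-value 0.0082) at 9 h and 0.42 (adjusted P-value 0.0042) at 6 h against 1 h. The complex I assembly factor Ndufaf1 was higher at 6 h against 1 h, by 0.49, having been called lower at 1 h against 0 h, by −0.44, and its change at 6 h against 0 h was 0.04. The assembly factor Ndufaf2 stood well above background on each 6 h array but on none of 0 h or 1 h and on 5 arrays in all, so it was tested only through the time-point at which it was high. It counts among the members called higher at 6 h against either time, and no size is given for it.

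The subunits made from mitochondrial DNA, which are not members, gave a comparison within the same complexes. Of 7 measured, 3 were called lower at 9 h and 0 higher by limma, also at an unadjusted P-value under 0.05, with a median of −0.21 at 6 h and −0.23 at 9 h. After quantile normalization 0 of the 7 were called by limma at 6 h or 9 h, with medians of −0.02 and 0.05, so the direction at 9 h turned. COX2, a catalytic subunit of complex IV, stood at 8.34, 8.25 and 8.32 (0 h), 8.26, 8.35 and 8.40 (1 h), 7.75, 7.92 and 7.84 (6 h) and 7.78, 7.95 and 7.83 (9 h). The 6 h and 9 h arrays lay below all of 0 h and 1 h, with a change of −0.45 (limma adjusted P-value 0.00171) at 9 h that turned to 0.01 under quantile normalization and 0.02 in the authors' own normalized values. ATP6, the channel subunit of ATP synthase, changed by −0.35 (adjusted P-value 0.0177), which likewise turned to 0.13 and 0.15.

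Other lists of energy metabolism were read beside the nuclear respiratory chain genes, and beside the 15.8% of all genes that were higher and the 15.4% that were lower at 9 h. Of 24 genes of the citrate cycle and pyruvate dehydrogenase, 5 were lower and 0 higher at 9 h by limma, also at an unadjusted P-value under 0.05, with a median of −0.12, or −0.02 without the first 0 h array, and 2 were lower after quantile normalization. Idh2, the mitochondrial NADP-dependent isocitrate dehydrogenase, had the clearest fall: 5.13, 4.75 and 4.74 (0 h), 4.49, 4.60 and 4.51 (1 h), 4.17, 3.94 and 3.98 (6 h) and 3.8, 3.89 and 3.75 (9 h). Its arrays descended from time-point to time-point without overlap among these 4, and its change was −1.07 (limma adjusted P-value 8.25e-06) at 9 h. Pdk2, a kinase that restrains pyruvate dehydrogenase, also changed by −1.07 (adjusted P-value 0.000143).

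At 9 h 5 of 26 glycolysis genes were higher and 6 lower (19.2% and 23.1%), with a median of 0.13. The hexokinases Hk2 and Hk3 rose by 2.10 and 3.62 (limma adjusted P-values 3.97e-05 and 1.80e-06), Hk3 being a form of white blood cells. Hk3 stood at −4.08, −3.75 and −3.78 at 0 h and at −0.25, −0.49 and 0.01 at 9 h, alongside the neutrophil markers, whose part in it was not tested. Of 16 hypoxia response genes 3 were higher and 4 lower (18.8% and 25%), with a median of −0.08, or −0.02 without the first 0 h array and 0.02 after quantile normalization. Neither list stood far from all genes in these shares. Car9 and Adm were higher at 9 h, by 1.38 and 0.85.

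Among 17 regulators of mitochondrial biogenesis, 4 were higher and 1 lower at 9 h (23.5% and 5.88%), with a median of 0.21. At 6 h against 1 h 8 were higher and 1 lower (47.1% and 5.88%), against 11.4% and 12.6% of all genes. Pprc1, a relative of the coactivator PGC-1 alpha, stood at 0.91, 1.53 and 1.09 (0 h), 0.74, 1.1 and 1.07 (1 h), 1.68, 2.03 and 2.01 (3 h), 2.21, 2.37 and 2.16 (6 h) and 2.11, 1.97 and 2.30 (9 h). All arrays from 3 h lay above all of 0 h and 1 h, with a change of 1.07 (limma adjusted P-value 0.000509) at 6 h. Ppargc1b was not called at any time against 0 h and changed by −1.19 at 3 h against 1 h. Nrf1, whose product binds the core shown in the Atp5i promoter, changed by 0.47 (adjusted P-value 0.00440) at 9 h.

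Of 17 assembly factors 2 were higher and 6 lower at 9 h (11.8% and 35.3%), with a median of −0.16, or −0.05 without the first 0 h array. Bcs1l, which inserts the Rieske protein into complex III, changed by 0.67 (limma adjusted P-value 0.000215), and Nubpl, which serves the iron-sulphur clusters of complex I, by −0.60 (adjusted P-value 0.00267). Of 16 genes of cytochrome c and ubiquinone 2 were higher and 2 lower, or 4 and 1 without the first 0 h array. Coq10b, a ubiquinone-binding protein, stood at 1.70, 1.82 and 1.75 (0 h), 2.63, 2.42 and 2.58 (0.5 h), 3.02, 3.36 and 3.2 (3 h) and 2.51, 2.41 and 2.60 (9 h). It was called higher at all 5 times and highest at 3 h, by 1.43 (adjusted P-value 2.85e-06). Dhodh, which feeds electrons from pyrimidine synthesis into ubiquinone, rose by 0.85 (adjusted P-value 0.000104) at 9 h.

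Of 11 uncoupling proteins and adenine nucleotide carriers 2 were higher and 3 lower at 9 h, with a median of −0.50, or −0.18 without the first 0 h array. Slc25a27 changed by −0.68 (limma adjusted P-value 0.000670). Ucp1, the uncoupling protein of brown fat, was well above background on 4 arrays, the 3 of 9 h among them, and on none of 0 h. It was thus tested only through the time-point at which it was high, and no size is given for it. Any call of Ucp1 counts in the numbers of this list. Among large gene families, 8 of 86 cytosolic ribosomal protein genes were higher and 10 lower (9.3% and 11.6%), with a median of −0.05 at 9 h, or 5 and 13 without the first 0 h array (median −0.08). After quantile normalization 24 were higher and 1 lower, with a median of 0.16, so their direction turned. The 71 mitochondrial ribosomal protein genes had 8 higher and 13 lower (11.3% and 18.3%) with a median of −0.03, which was −0.01 without the first 0 h array and 0.01 after quantile normalization. The 38 proteasome genes had 7 higher and 1 lower with a median of 0.10, and 16 and 0 after quantile normalization with a median of 0.25. These lists differ in brightness and in size and no test between them was made.

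**Figure D4:**
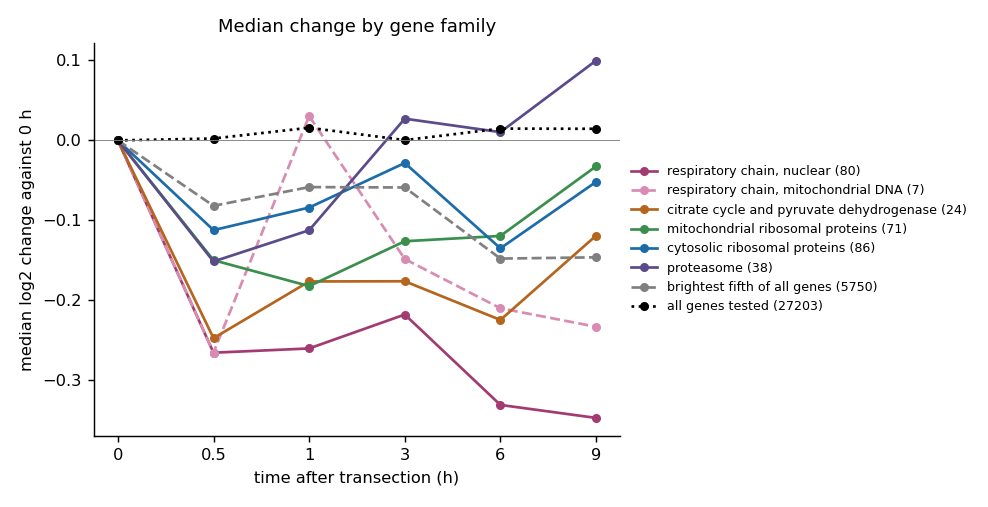
Median log2 change against 0 h of the nuclear respiratory chain genes and of 5 other gene families, of bright genes (the top brightness quintile) and of all genes tested, against time after resection in hours (spaced evenly); the number of genes is given in brackets and 0 h is 0 by definition. The respiratory chain line lies lowest at 1, 3, 6 and 9 h, reaching −0.35 at 9 h, while the line of all genes stays between 0.00 and 0.02. After quantile normalization the medians of both ribosomal families and of the mitochondrial DNA subunits at 9 h lay above 0.

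The size of the shift depended on how arrays were scaled, and the number of calls also on the background correction. After quantile normalization 18 members were lower at 6 h and 17 at 9 h, or 22.5% and 21.2%, against a background of 14.1% and 16.7%, with medians of −0.21 and −0.23. With the normexp background correction 3 and 7 were lower, or 3.75% and 8.75%, against a background of 3.11% and 5.15%, with medians of −0.32 and −0.34. The direction of the median was the same under both. At 9 h Ndufa6, Ndufa11, Ndufs8, Uqcr, Uqcrb and Atp5s were called lower under all 32 settings tried.

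**Figure D5:**
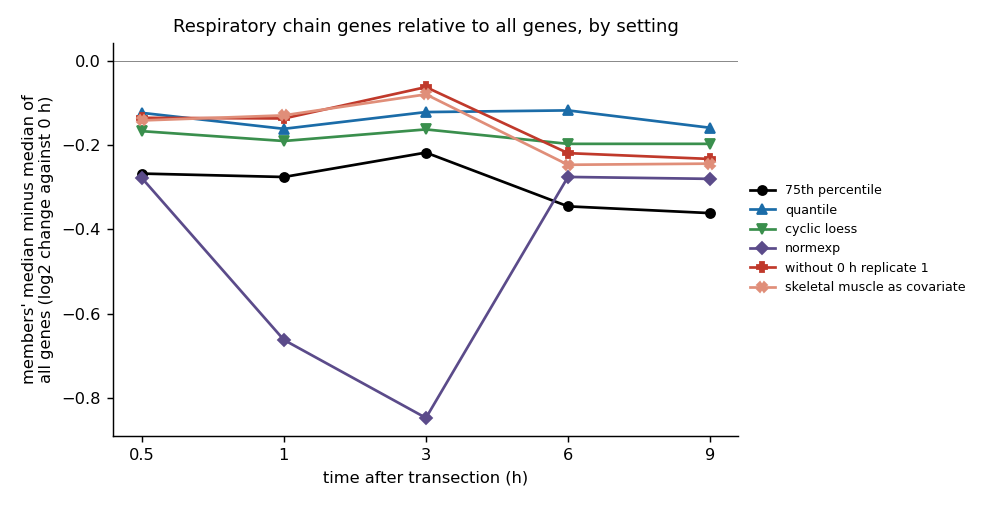
Median log2 change of the 80 members minus that of all genes tested, against time after resection in hours (spaced evenly), under 6 settings. Every line stays below 0, and the lines without the first 0 h array and with muscle as a covariate lie nearer to 0 than the 75th percentile line at every time.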

How the data were processed

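Rat sciatic nerve RNA was measured on 18 Agilent 1-colour arrays. The deposited scanner files hold intensity values that the authors extracted with Agilent Feature Extraction (version 10.5.1.1 per the file headers) and that were not normalized between arrays, and probe coordinates refer to rn4. The deposited log2 table, which the authors had normalized, ranked probes within each array as the scanner files do and served as an alternative. The log2 of the processed signal minus the array's 75th percentile was fitted with limma 3.58.1 (R 4.3.3) with 6 group means over 32113 probes, leaving out control and outlier spots. Atp5f1 was fitted on 16 arrays for that reason. Between 65.9% and 93.5% of spots were well above background, and precision is limited by having 3 arrays per time-point. Genes were placed in complexes by symbol. Named were all Sdh genes, the isoform pairs and Cox7a2l, up to 4 members per complex with the largest change among those called in the F-test, the brightest member, and 2 genes per pathway list; others named were chosen after their values were seen. Members and lists were chosen with earlier results of these data known. Alternatives covered scaling, background, filters, blocks, weights and left-out arrays.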

Additional observations from a re-analysis of the deposited data

How the results depend on the processing

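Of 768 values of counts and medians compared with the values given above, 629 stayed within 1.5 times the count, or for a median within 1 SD between arrays of a time-point, and 139 moved by more. Unless a direction is given, counts are members called. At an adjusted P-value under 0.01, 17 members changed over time, 21 were lower at 6 h, 1 was lower at 3 h, 1 moved each way at 0.5 h, and 0 moved either way at 1 h. With quantile normalization 14 changed over time, 3 were lower at 0.5 h, 0 higher at 1 h, 18 lower at 6 h (median −0.21), 17 lower at 9 h (median −0.23) and 6 lower at 6 h against 1 h. The authors' normalized values gave 14 over time, 3 lower at 0.5 h, 0 higher at 1 h, 19 lower at 6 h (median −0.21), 18 at 9 h (median −0.20) and 6 lower at 6 h against 1 h. Cyclic loess gave 12 over time, 6 lower at 0.5 h, 17 at 6 h (median −0.22), 15 at 9 h (median −0.21), 2 higher at 3 h against 1 h and 5 lower at 6 h against 1 h. Normexp gave 2 over time, 0 higher and 0 lower at 0.5 h, 0 higher and 1 lower at 1 h, 0 lower at 3 h (median −0.41, where all genes had 0.44), 1 higher and 3 lower at 6 h, 1 higher and 7 lower at 9 h, 0 higher at 3 h against 1 h, and 1 higher and 0 lower at 6 h against 1 h (median 0.062). Shifting arrays to their median gave 23 lower at 0.5 h (median −0.42), 16 lower at 1 h (median −0.41), medians of −0.47 at 6 h and −0.52 at 9 h, 1 higher at 9 h and 3 lower at 6 h against 1 h; it moved the median of all genes by −0.16 to −0.09 too.

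Fitting only the 6 arrays of a comparison gave 1 lower (0.5 h), 0 (1 h), 1 (3 h), 16 (6 h) and 16 (9 h), 1 higher at 9 h, 0 higher at 3 h against 1 h, and 1 higher and 0 lower at 6 h against 1 h; fewer arrays enter each fit. Restricting the fit to the second scan day gave 5 lower at 6 h against 1 h. Array weights gave 2 higher at 1 h (median −0.13), 2 higher and 9 lower at 3 h, and 20 lower at 6 h against 1 h. A trended, robust prior gave 9 lower at 1 h and 11 at 3 h. Without a filter 2 were lower at 3 h, and counting any probe of a gene 2 were higher at 3 h against 1 h. With slide as a random block 1 was higher at 3 h. Requiring signal above background on all 18 arrays left 1 higher (0.5 h), 0 (1 h), 1 (6 h), 2 (3 h against 1 h) and 2 (6 h against 1 h). The following were chosen after the data were seen. Muscle markers as a linear covariate gave 5 lower at 0.5 h (median −0.15), 0 lower at 1 h (median −0.13), 1 higher and 1 lower at 3 h (median −0.091), and a median of −0.23 at 9 h, and as a log2 covariate 1 higher at 3 h. Another setting left out Cox4nb, Cox6c1, Ndufaf1, Ndufaf2, Atp5s and Atp5sl, and also the tissue forms Cox6a2, Cox6b2, Cox8b and Cox8c. It gave 1 higher (0.5 h), 0 (1 h), 1 (6 h), 1 (9 h), 0 (3 h against 1 h) and 0 (6 h against 1 h). The cause of these shifts was not tested except where the alternative itself removes members, genes or arrays.

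Leaving out 1 array at a time gave 19 to 36 members over time (19 without the first 0 h array and without the first 9 h array). It gave 1 to 14 lower and 1 to 2 higher at 0.5 h (median −0.33 to −0.15), 0 to 6 lower and 0 to 1 higher at 1 h (median −0.33 to −0.14), 1 to 8 lower and 0 to 1 higher at 3 h (median −0.26 to −0.084), 23 to 39 lower at 6 h (median −0.40 to −0.22) and 26 to 42 lower at 9 h (median −0.41 to −0.23). The lowest count came without the first 0 h array at 6 h and without it or the first 9 h array at 9 h. Against 1 h, 0 to 3 were higher at 3 h and 5 to 17 lower at 6 h (5 without the second 1 h, the second 6 h or the third 6 h array, 6 without the first 1 h array, 17 without the third 1 h array).

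Whether array numbers pair the samples was not settled. Same-numbered arrays deviated together with r of −0.26 to 0.56 (median 0.07) over 45 pairs, against −0.52 to 0.38 (median 0.007) over 90 others. Ranges that overlap in this way cannot decide it. With the replicate number as a block 26 members changed over time, 34 were lower at 6 h and 39 at 9 h. Under quantile normalization the change of COX2 at 9 h reversed to 0.010, that of ATP6 to 0.13, and that of ATP6 at 6 h against 1 h to 0.033; the authors' values gave 0.025, 0.15 and 0.027. With normexp Cox6b2 at 3 h reversed to 0.0054 and Cox6c1 at 6 h against 1 h to −0.46. The members' changes at 9 h had a median SE of 0.12.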
